A study of Mus musculus with 16 samples.

Results

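The nuclear-encoded genes of the mitochondrial respiratory chain were followed across 4 populations of Pdgfrb+ cells from the epididymal white fat of perinatal mice. Members were chosen by symbol: the gene rows that begin with Ndufa, Ndufb, Ndufc, Ndufs or Ndufv, with Uqcr, with Cox4 to Cox8 or with Atp5, and Sdha, Sdhb, Sdhc and Sdhd. The pattern matched 100 of 27179 rows, 3 rows named as pseudogenes (-ps) were dropped, and 97 members remained. They comprised 36 structural subunits of complex I, 8 of its assembly factors that the pattern takes in, and 4 extra gene copies of subunits. There were also 4 subunits of complex II, 8 of complex III, 12 members grouped with complex IV and 17 subunits of complex V. The other 8 members are tissue-type or condition-type isoforms and are described apart. All cells came from C57BL/6 mice at postnatal day 7 and were isolated by flow cytometry as PDGFRb+ cells, with no genetic change or treatment given in the labels. The populations are named APCs, FIPs, MLCs and SMCs, with 4 RNA-seq libraries each, and were made from freshly isolated cells. The labels give neither the gates that separated the populations nor whether the 4 libraries of one came from separate animals, so p-values measure the spread between libraries, which may be technical.

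Complexes I to IV pass electrons from NADH and succinate to oxygen. Complexes I, III and IV pump protons across the inner mitochondrial membrane, and complex V, the ATP synthase, uses the proton gradient to make ATP. Complex II is also an enzyme of the citric acid cycle. Complexes I, III, IV and V combine nuclear-encoded subunits with a few encoded by mitochondrial DNA, and some complex IV subunits come in alternative isoforms that are used in muscle, testis or low oxygen. In fat, respiratory chain genes rise with adipocyte differentiation and are especially high in brown adipocytes.

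The libraries held 9.20 M to 27.5 M reads assigned to genes (median 21.6 M). Values are the authors' normalized counts, in which each library is divided by one factor. They summed to 18.1 to 18.3 M in MLCs, 19.1 to 19.7 M in APCs, 19.1 to 20.2 M in SMCs and 22.5 to 23.8 M in FIPs. Of 5 FIP markers, Ly6c1 (2483 to 3006 normalized counts in FIPs, at most 149.5 elsewhere), Cd55, Pi16 and Sema3c were highest in FIPs, although Pi16 averaged 4871 in SMCs and Sema3c 9503 in MLCs. The remaining marker, Dpp4, was higher in MLCs (8215 to 9132) than in FIPs (1645 to 2219). Of 6 APC markers, Pparg, Plin1, Fabp4, Adipoq and Pdgfrb had their highest mean in APCs. Pparg averaged 1282 there and 444 in FIPs, and Adipoq 261 there and 157 in SMCs. The remaining APC marker, Pdgfra, averaged 20560 in APCs, 22970 in FIPs and 23840 in SMCs. The mesothelial gene Upk3b stood at 39960 to 41410 in MLCs. SMCs were less distinct. Their Acta2, the smooth muscle actin, lay between 2885 and 5858, but their Pdgfra (21130 to 25500) was at the level of APCs and FIPs, their Upk3b reached 2503 to 4311, and their Myh11 (680.5 to 1633) overlapped the range in MLCs (1193 to 1377). In MLCs Pdgfrb itself, the gene of the sorted receptor, was at 419 to 483, against 2678 to 4870 in the other populations. One APC library, APCs 4, held 2388 counts of Acta2 where the lowest APC library held 155.8. Counts of members called in each pair are also given without APCs 4 and SMCs 3, the shallowest library. Of the other results, only some are repeated without them.

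As a share of the library, transcripts of the chain were most abundant in APCs and MLCs. Summed over all 97 members, they took 0.407% ± 0.028 (SD, n = 4) of all normalized counts in APCs, 0.390% ± 0.019 in MLCs, 0.303% ± 0.017 in SMCs and 0.297% ± 0.003 in FIPs. The low share in FIPs goes with their larger normalized totals: as summed normalized counts FIPs (68330 ± 1805) lay between MLCs (71150 ± 3539) and SMCs (59750 ± 2404), with APCs at 78910 ± 5828. In these bulk samples fewer cells of a type and less RNA per cell cannot be told apart. Complex I alone took 0.104% ± 0.0076 of all normalized counts in APCs, 0.104% ± 0.0048 in MLCs, 0.0814% ± 0.0054 in SMCs and 0.0762% ± 0.0013 in FIPs.

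**Figure D1:**
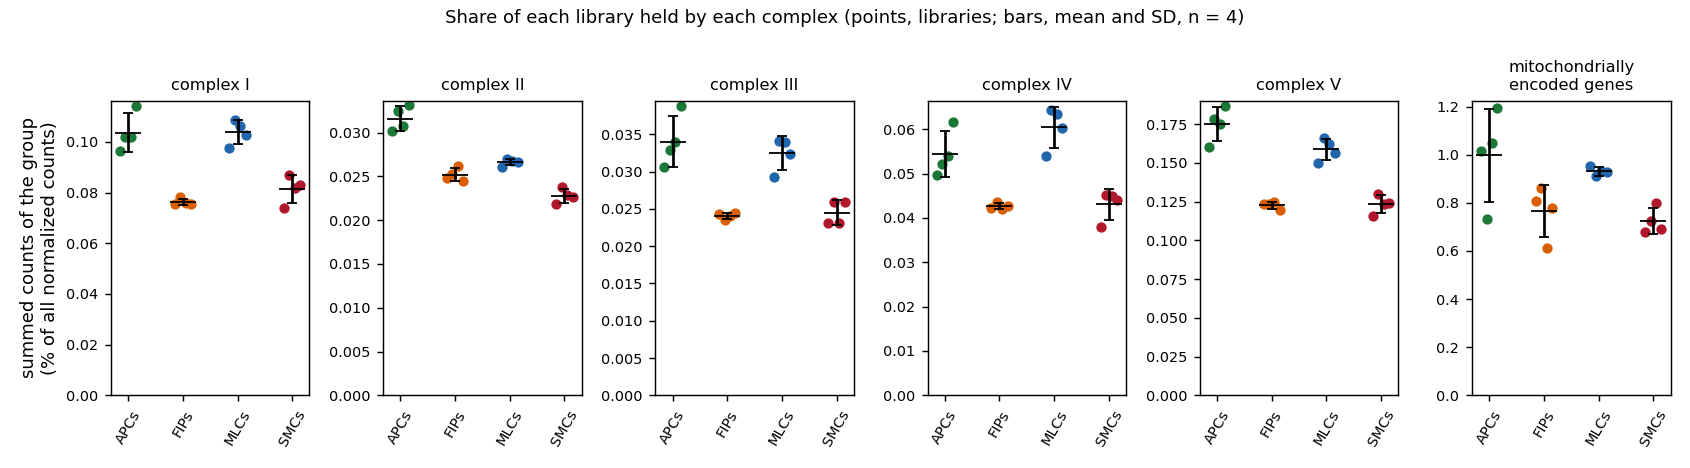
Summed counts of each complex as a percentage of all normalized counts in each library (points; bars, mean and SD of the 4 libraries of a population), with the mitochondrially encoded genes in the last panel. Every y axis starts at 0; complex I lies near 0.104% in APCs and MLCs and at 0.0762% in FIPs and 0.0814% in SMCs.

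Within the chain, differences between populations were small. Of the 97, 89 reached 10 normalized counts in at least 4 of the 16 libraries and entered the test. The ratio of the highest to the lowest population mean was under 2 for 85 of these 89 members (95.5%, against 56.7% of the 15024 genes tested), with a median of 1.34 against 1.75. The exceptions were the 4 tested isoforms, at 2.17 to 6.24, among them Cox4i2, which entered the test only through APCs and so had to differ. Within this narrow range the order depended on the scaling. Under the deposited scaling APCs held the highest mean for 45 members (50.6%, against 20% of all genes tested). MLCs held it for 35 (39.3%, against 36%), whereas SMCs held the lowest for 56 (62.9%, against 21.0%). With equal library totals MLCs held the highest mean for 47 members and APCs for 38, and the lowest mean was in FIPs for 59 and in SMCs for 28.

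**Figure D2:**
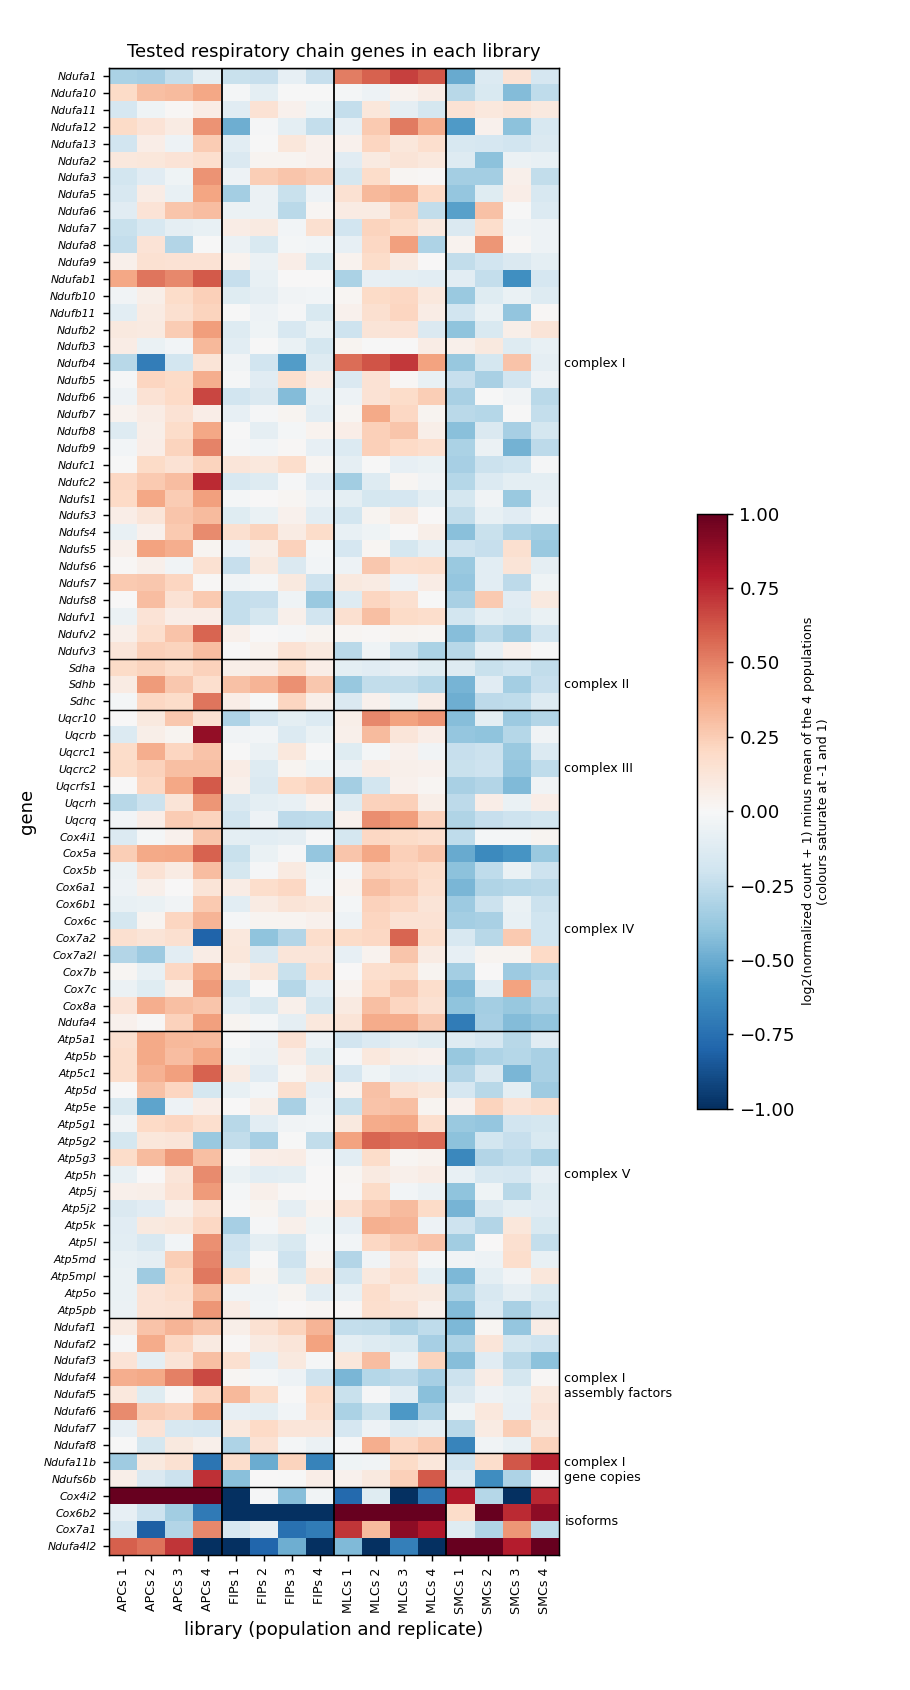
Tested members (rows, grouped by complex; 1 is not drawn) in each library (columns, by population): colour gives log2(normalized count + 1) minus the gene's mean over the 4 populations, saturating at -1 and 1. Most rows are pale, under this deposited scaling SMCs hold the lowest mean in 56 of the 89 tested members (28 with equal library totals), and the isoform rows at the bottom have the strongest colours.

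Per kilobase of exon, the most abundant member in all 4 populations was Atp5b, the catalytic beta subunit of the ATP synthase. It stood at 5522 normalized counts per kb in APCs, 4598 in MLCs, 4329 in FIPs and 3545 in SMCs. Atp5a1, the alpha subunit, ranked next in APCs, with 3385 per kb there and 2512, 2779 and 2449 in MLCs, FIPs and SMCs. In those 3 populations Cox4i1, the common subunit 4 of complex IV, ranked above it, with 3227, 2848 and 2874 per kb. Cox6a1, of the same complex, held 2101 to 3008 per kb over the 4 population means.

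Promoters of the members carried a motif of the type bound by NRF1 more often than promoters of all genes. NRF1 is a transcription factor known for its targets among respiratory chain genes. RefSeq promoter windows, from 250 bases before to 50 after the annotated start, were matched for 77 of the 97 members (build GRCm38.p6). GCGCANGCGC, searched on both strands, occurred in 19 of the 77 (24.7%), against 5.19% of 27025 genes and 10.6% of the 11465 tested genes with a window. Its palindromic form GCGCATGCGC, a subset of the former, occurred in 7 (9.09%, against 1.07% and 2.13%). The ETS-type letters CCGGAAG were in 19 members (24.7%, against 9.93% and 18.4%) and the hypoxia-type letters ACGTG in 18 (23.4%, against 21.8% and 28.6%). A match is a description of letters, not a binding site. Windows of 3 members are shown as examples with and without matches, for subunits described below, with NRF1-type matches on either strand in capitals. The examples say nothing of how much members vary: Ndufb4 has 3 and a ratio of highest to lowest mean of 1.75, Sdha has 3 and a ratio of 1.32, and Ndufb3, with the lowest ratio (1.13), has none. Sdha is at chr13:74350191-74350490 on the minus strand and has 3 matches. Uqcrc1, at chr9:108936398-108936697 on the plus strand, has 2. Cox6b2, at chr7:4753045-4753344 on the minus strand, has none of the motifs searched.
Sdha: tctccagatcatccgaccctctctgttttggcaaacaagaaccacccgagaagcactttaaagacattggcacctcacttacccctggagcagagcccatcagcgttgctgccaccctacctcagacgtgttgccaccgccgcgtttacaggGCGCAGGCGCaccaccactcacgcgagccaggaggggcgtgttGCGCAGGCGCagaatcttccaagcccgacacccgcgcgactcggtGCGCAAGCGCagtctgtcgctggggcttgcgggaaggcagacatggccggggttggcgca
Uqcrc1: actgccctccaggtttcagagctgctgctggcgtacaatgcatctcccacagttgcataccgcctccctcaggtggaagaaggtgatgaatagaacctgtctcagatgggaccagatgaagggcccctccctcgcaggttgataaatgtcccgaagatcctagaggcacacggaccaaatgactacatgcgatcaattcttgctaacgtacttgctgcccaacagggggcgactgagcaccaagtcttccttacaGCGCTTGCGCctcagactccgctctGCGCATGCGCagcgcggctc
Cox6b2: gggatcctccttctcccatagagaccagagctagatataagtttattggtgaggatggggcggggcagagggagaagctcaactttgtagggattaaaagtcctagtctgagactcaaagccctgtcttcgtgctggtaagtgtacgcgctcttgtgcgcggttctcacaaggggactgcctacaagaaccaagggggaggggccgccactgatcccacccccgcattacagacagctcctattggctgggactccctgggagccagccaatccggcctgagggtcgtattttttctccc

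Each pair of populations was compared with limma over all 15024 genes, and calls rest on an adjusted p under 0.05 alone, with no limit on size. In either direction they took in 41.1% of all genes for APCs against FIPs, 67.5% for APCs against MLCs, 56.2% for APCs against SMCs, 67.2% for FIPs against MLCs, 54.0% for FIPs against SMCs and 65.6% for MLCs against SMCs. Differences below are on the log2(normalized count + 1) scale, first-named population minus second, with their standard errors. The pairs share libraries, so their counts are not independent of each other.

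APCs against SMCs gave the widest one-sided shift. Of 89 members 56 were higher in APCs and 3 lower, where 26.3% of all genes were higher and 29.8% lower, and the members' median difference was 0.31 against -0.02 for all genes. The 3 lower members were Cox6b2, Ndufa4l2 and Atp5e. MLCs against SMCs gave 46 higher and 4 lower in MLCs (35.3% and 30.3% of all genes), with a median of 0.26 against 0.04. The count of 4 lower dropped to 2 without MLCs 1, MLCs 4, SMCs 2 or SMCs 4. FIPs against SMCs gave 29 higher and 2 lower in FIPs (26.4% and 27.6%), with a median of 0.15 against -0.01. The lower pair was Cox6b2 and Ndufa4l2. With every library scaled to the same total, FIPs against SMCs gave 4 higher and 9 lower and its median turned to -0.07, whereas the other pairs with SMCs gave 58 higher and 2 lower (APCs) and 61 and 1 (MLCs).

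APCs against FIPs gave 28 members higher in APCs and 0 lower by limma (19.8% and 21.3% of all genes), with a median of 0.16 against -0.01. At an unadjusted p under 0.05, 34 were higher and 2 lower. edgeR on the recovered reads, run without FIPs 1 and APCs 2, called 21 higher and 0 lower. Without APCs 4 the count was 25 higher and 2 lower, and leaving out APCs 2, FIPs 2, MLCs 1 or SMCs 1 gave 1 lower. With equal totals 71 were higher, and the median of all genes moved to 0.23. The members' median lay 0.17 above that of all genes under the deposited scaling, equal totals and quantile normalization alike.

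APCs against MLCs gave 25 higher and 10 lower (32.6% and 34.9% of all genes), and FIPs against MLCs gave 10 higher and 21 lower (32.6% and 34.6%). For APCs against MLCs the 10 lower became 6 without APCs 1, MLCs 3 or MLCs 4, and the median of 0.07 became -0.03 without APCs 4. The split was 18 and 17 with equal totals and 33 and 5 with quantile normalization, so no direction can be given for the members in that pair. For FIPs against MLCs the 10 higher became 6 without FIPs 1, MLCs 1 or MLCs 4. The split there was 1 and 72 with equal totals and 13 and 16 with quantile normalization, with medians of -0.44 and -0.02 against -0.11 under the deposited scaling.

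Changes of at least 2-fold were few. In no more than 3 members per pair did a called difference reach 2-fold (3 of 89 in APCs against FIPs, in APCs against MLCs and in APCs against SMCs), where 10.4%, 29.6% and 17.2% of all genes did. All of them were isoforms. One of the 3 in each of these pairs was Cox4i2, which entered the test only through its level in APCs and so had to differ. The count for APCs against SMCs was 1 without APCs 4. For FIPs against MLCs and FIPs against SMCs the count was 2 (31.1% and 17.9% of all genes), and the former was 1 without FIPs 3. It was 1 for MLCs against SMCs (27.9%), and 2 without SMCs 3.

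**Figure D3:**
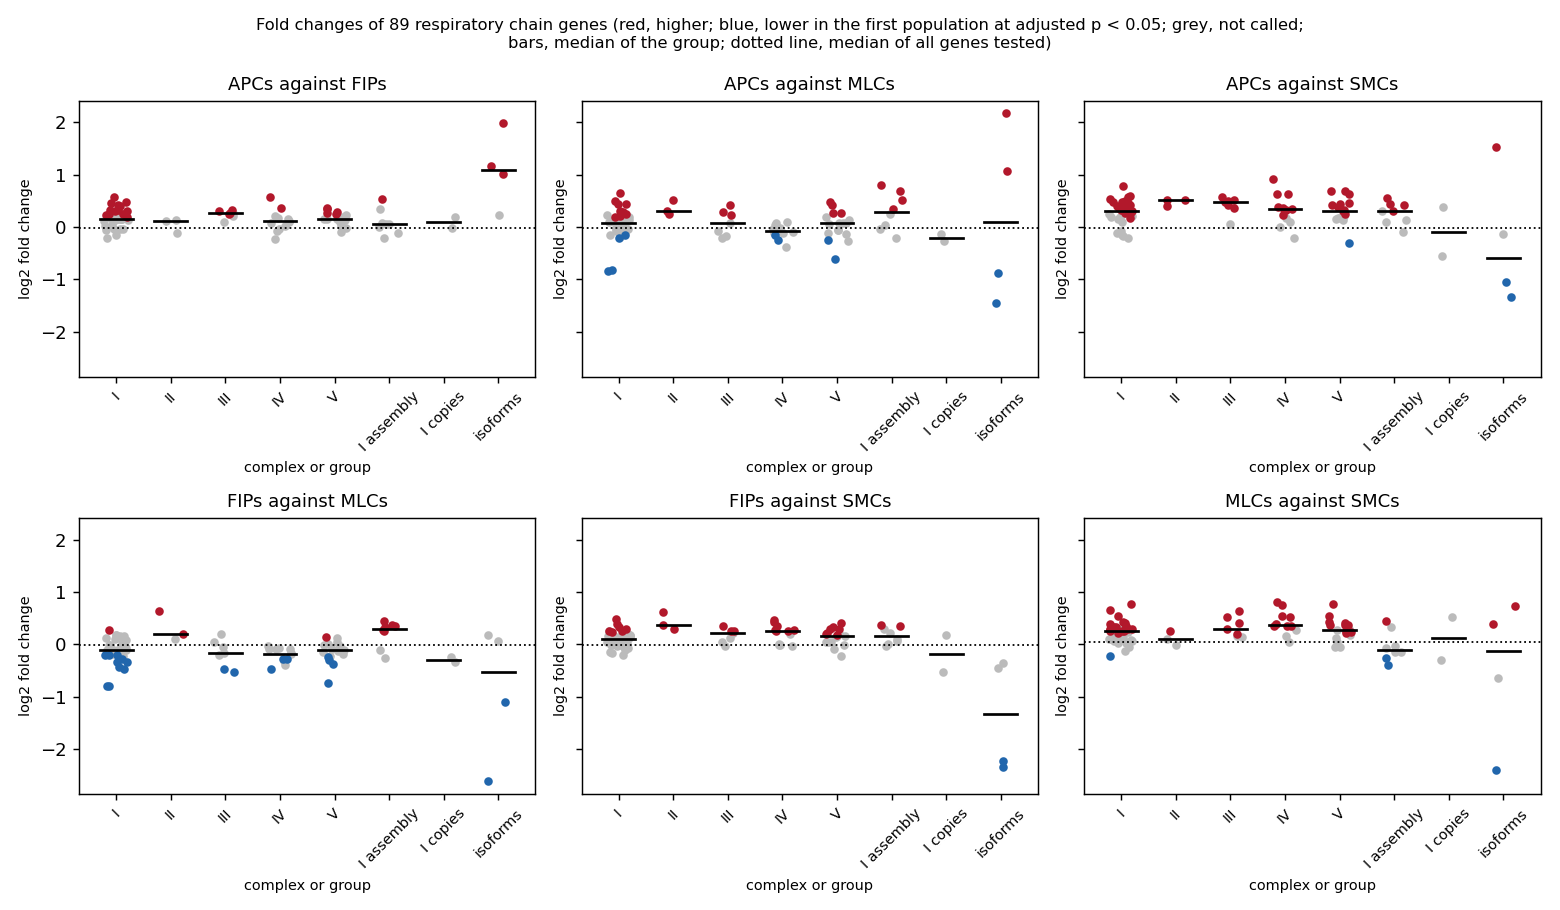
Log2 fold change (y axis) of each of the 89 tested members (points) by complex or group (x axis) in the 6 pairs of populations; red and blue points were called higher and lower in the first-named population, grey ones were not called, bars are medians of a group and the dotted line is the median of all genes tested. In APCs against SMCs 56 points are red and 3 blue, and the widest differences are those of the isoforms.

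Under the deposited scaling complex I, which oxidizes NADH, differed mainly in the pairs with SMCs. Of its 36 subunits, all tested, 24 (66.7%) were higher in APCs than in SMCs, where 26.3% of all genes were, with a median of 0.30. In MLCs against SMCs 19 (52.8%) were higher and 1 lower (35.3% and 30.3% of all genes), with a median of 0.25. In APCs against FIPs 13 (36.1%) were higher (19.8%), with a median of 0.16. In FIPs against MLCs 1 was higher and 10 (27.8%) lower, and the latter is below the 34.6% of all genes. With equal totals 28 of the 36 subunits had their lowest mean in FIPs and 8 in SMCs. Ndufs1, the largest subunit and a carrier of iron-sulfur clusters, held 1124, 1276, 1163 and 1302 counts in APCs, 967, 983, 993 and 943 in FIPs, 915, 864, 870 and 914 in MLCs, and 868, 952, 756 and 922 in SMCs. All 4 APC libraries were above all others, and the difference was 0.32 ± 0.07 from FIPs (adjusted p = 0.00079), 0.45 ± 0.07 from MLCs (1.0e-05) and 0.48 ± 0.07 from SMCs (8.9e-06). Ndufab1, the mitochondrial acyl carrier protein, had the largest difference between APCs and SMCs among the subunits of this complex. It held 240, 266, 257 and 282 counts in APCs, 156, 175, 184 and 184 in FIPs, 147, 173, 171 and 171 in MLCs, and 171, 156, 120 and 163 in SMCs. The differences of APCs were 0.58 ± 0.11 (0.00039), 0.65 ± 0.11 (4.4e-05) and 0.78 ± 0.11 (1.0e-05).

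Other complex I subunits were highest in MLCs. Ndufa1, a small membrane subunit encoded on chromosome X, held 432, 456, 488 and 467 counts in MLCs, 243, 241, 257 and 284 in APCs, 259, 258, 285 and 258 in FIPs, and 214, 275, 335 and 269 in SMCs. The MLC libraries lay above all 12 others, and the differences were -0.85 ± 0.11 for APCs against MLCs (adjusted p = 8.4e-07), -0.80 ± 0.11 for FIPs (1.8e-06) and 0.77 ± 0.11 for MLCs against SMCs (3.3e-06). Ndufb4, another membrane subunit, showed the same order, with means of 215 ± 19.1 in MLCs against 123 ± 28.3, 124 ± 18.6 and 137 ± 27.4 in APCs, FIPs and SMCs, but 37.0% of the 50-base windows of its exons also occur in other genes, so its counts are uncertain. Ndufv1, a subunit of the NADH-binding module, was also highest in MLCs (1371 ± 62.1, against 1234 ± 68.7 in APCs and 1083 ± 99.5 in FIPs), with -0.34 ± 0.06 for FIPs against MLCs (9.0e-05). Its smaller differences of APCs from the 3 others (0.15 to 0.19 in size) were each lost when one of several libraries was left out. Ndufs4 went with SMCs as the low population: 454 to 666 in APCs, 507 to 558 in FIPs, 455 to 497 in MLCs and 358 to 409 in SMCs, with 0.50 ± 0.09 for APCs (0.00016) and 0.49 ± 0.09 for FIPs (0.00021). Ndufv3 was higher in APCs (837 ± 45.8) than in MLCs (620 ± 52.8), by 0.43 ± 0.08 (4.6e-05). Its difference between FIPs and MLCs was 0.28, and -0.05 with equal totals. Ndufa11 was the single subunit called lower in MLCs than in SMCs (-0.22 ± 0.08, adjusted p = 0.028), and that call was lost without MLCs 1, MLCs 4 or SMCs 1.

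The assembly factors differed in their order from the subunits under the deposited scaling. Of the 8 factors, Ndufaf1 to Ndufaf8, 6 had their lowest mean in MLCs (2 with equal totals), where 2 of the 36 subunits did. Of all genes tested 34.1% had their lowest mean in MLCs. In FIPs against MLCs 6 of 8 were higher in FIPs (32.6% of all genes were), with a median of 0.30, beside -0.11 for the subunits. With equal totals 2 of the 8 were instead lower in FIPs and the median was -0.03, still 0.32 above that of all genes, and with quantile normalization 6 were higher. Ndufaf4 held 251, 254, 278 and 310 counts in APCs, 198, 192, 188 and 169 in FIPs, 142, 160, 163 and 155 in MLCs, and 168, 206, 173 and 197 in SMCs. APCs were above all others, by 0.81 ± 0.10 over MLCs (adjusted p = 7.3e-07), 0.54 ± 0.10 over FIPs (0.00022) and 0.55 ± 0.10 over SMCs (0.00014). Ndufaf6 differed by 0.69 ± 0.14 between APCs and MLCs (71.7 ± 5.77 against 44.0 ± 4.50; 0.00030) and Ndufaf1 by 0.46 ± 0.12 between FIPs and MLCs (167 ± 13.8 against 121 ± 2.67; 0.0031). Of the 4 extra gene copies, Ndufa11b and Ndufs6b entered the test, and both are annotated as pseudogenes although not named so. Ndufb4b and Ndufb4c did not enter it.

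Complex II, succinate dehydrogenase, took 0.0316% of all normalized counts in APCs, 0.0266% in MLCs, 0.0252% in FIPs and 0.0228% in SMCs. Sdhb, its iron-sulfur subunit, held 974, 1236, 1109 and 1038 counts in APCs, 1127, 1169, 1264 and 1114 in FIPs, 708, 775, 775 and 757 in MLCs, and 669, 854, 728 and 785 in SMCs. The first 8 libraries lay above the other 8. The difference was 0.63 ± 0.08 for FIPs against MLCs (adjusted p = 7.8e-07), 0.63 ± 0.08 for FIPs against SMCs (1.9e-06), 0.53 ± 0.08 for APCs against MLCs (8.7e-06) and 0.52 ± 0.08 for APCs against SMCs (1.9e-05). Sdha, the flavoprotein whose promoter is shown above, held 3759, 3842, 3755 and 3879 in APCs, 3443, 3471, 3752 and 3458 in FIPs, 3092, 3045, 3124 and 3030 in MLCs, and 3010, 2826, 2882 and 2783 in SMCs. The libraries of neighbouring populations in that order did not overlap. The neighbours APCs and FIPs (0.11 ± 0.04, adjusted p = 0.052) and MLCs and SMCs (0.10 ± 0.04, 0.062) missed the threshold, and FIPs against MLCs (0.20 ± 0.04, 0.00050) became -0.14 with equal totals. Sdhc, a membrane anchor, differed by 0.51 ± 0.10 for APCs against SMCs (0.00020) and by 0.37 ± 0.10 for FIPs against SMCs (0.0036). Its call between APCs and MLCs (0.25 ± 0.10, 0.029) was lost without APCs 4, MLCs 1 or MLCs 3. Sdhd, the other anchor, was not tested: its row holds 83 reads over all 16 libraries.

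Complex III, which passes electrons to cytochrome c, had 7 tested subunits. In APCs 6 were higher than in SMCs (against 26.3% of all genes, median 0.48). In MLCs 5 were higher than in SMCs (against 35.3%, median 0.30), and in APCs 4 were higher than in FIPs (against 19.8%, median 0.27). Uqcrc1, a core protein, held 1638, 1859, 1675 and 1760 counts in APCs, 1436, 1381, 1552 and 1436 in FIPs, 1328, 1423, 1483 and 1406 in MLCs, and 1228, 1241, 1114 and 1313 in SMCs. All APC libraries were above all others, by 0.26 ± 0.06 over FIPs (adjusted p = 0.0020), 0.30 ± 0.06 over MLCs (0.00024) and 0.50 ± 0.06 over SMCs (1.1e-06). Uqcrfs1, the Rieske iron-sulfur protein, differed by 0.58 ± 0.12 for APCs against SMCs (953 ± 171 and 635 ± 78.6; 0.00056). The small subunits Uqcr10 and Uqcrq instead peaked in MLCs. Uqcr10 held 510 ± 64.4 in MLCs, 437 ± 33.6 in APCs, 353 ± 22.4 in FIPs and 326 ± 33.4 in SMCs, and the 2 genes differed by -0.52 and -0.48 for FIPs against MLCs and by 0.64 and 0.52 for MLCs against SMCs. Uqcr11 was not tested, with 1 read in the whole table. Cyc1, the cytochrome c1 subunit that the symbol pattern leaves out, was higher in APCs (1064) than in FIPs (713), MLCs (745) and SMCs (693), by 0.58, 0.52 and 0.63.

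Complex IV, cytochrome c oxidase, was the complex most shifted to MLCs: 9 of its 12 tested members outside the isoforms had their highest mean there, and 11 with equal totals. The 9 include Cox7a2, which holds only 432 reads over all libraries. Of all genes tested, 36% had their highest mean in MLCs under the deposited scaling. Against SMCs 8 of 12 were higher in MLCs (median 0.37), 8 higher in APCs (0.34) and 7 higher in FIPs (0.26). The shares of all genes higher there were 35.3%, 26.3% and 26.4%. Cox5a varied most of the 12. It held 511, 562, 564 and 650 counts in APCs, 524, 563, 510 and 522 in MLCs, 369, 412, 427 and 330 in FIPs, and 304, 277, 286 and 334 in SMCs. APCs and MLCs overlapped and both lay above the other populations. The difference was 0.92 ± 0.09 for APCs against SMCs (adjusted p = 7.7e-08), 0.82 ± 0.09 for MLCs against SMCs (1.8e-07), 0.57 ± 0.09 for APCs against FIPs (4.1e-05), -0.47 ± 0.09 for FIPs against MLCs (0.00015) and 0.35 ± 0.09 for FIPs against SMCs (0.0032). The annotated gene Gm26631 overlaps 41.7% of the exon bases of Cox5a, and 32.0% of its 50-base windows occur elsewhere, so this row may not count all of its reads.

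Cox4i1, the common form of subunit 4, missed the threshold in all 6 pairs. It held 2088 to 2774 counts in APCs, 2136 to 2274 in FIPs, 2033 to 2645 in MLCs and 1928 to 2337 in SMCs, and its largest difference was -0.17 ± 0.09 (FIPs against MLCs, adjusted p = 0.095). Cox8a differed by 0.63 ± 0.06 for APCs against SMCs (1145 ± 73.5 and 738 ± 17.5; adjusted p = 1.3e-07) and by 0.55 ± 0.06 for MLCs against SMCs (3.9e-07). Cox6a1 held 1096 to 1247 counts in SMCs and 1448 or more in every other library, with 0.52 ± 0.07 for MLCs against SMCs (1.9e-06) and 0.43 ± 0.07 for FIPs against SMCs (2.7e-05). Ndufa4, once counted with complex I and now with complex IV, held 542 to 699 in SMCs and 826 or more elsewhere, with 0.64 ± 0.09 for APCs (9.2e-06) and 0.75 ± 0.09 for MLCs (6.3e-07) against SMCs. Cox6b1 and Cox7b were lower in SMCs than in MLCs by the same difference of 0.35. The call of Cox6b1 for APCs against SMCs (0.24 ± 0.09, adjusted p = 0.025) was lost without APCs 4 or SMCs 1.

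Complex V, the ATP synthase, had 10 of 17 members higher and 1 lower in APCs than in SMCs (26.3% and 29.8% of all genes). The median was 0.31. In MLCs 10 were higher than in SMCs (against 35.3% of all genes, median 0.27). In FIPs 7 were higher than in SMCs (against 26.4%, median 0.17), and in APCs 5 were higher than in FIPs (against 19.8%, median 0.16). Atp5b held 9618, 11056, 10553 and 11091 counts in APCs, 8444, 9169, 8877 and 8745 in MLCs, 8272, 8176, 8926 and 7801 in FIPs, and 6550, 6849, 6986 and 6783 in SMCs. APCs lay above all others and SMCs below all others, with MLCs and FIPs overlapping. APCs exceeded SMCs by 0.64 ± 0.06 (adjusted p = 1.5e-08), FIPs by 0.35 ± 0.06 (4.2e-05) and MLCs by 0.26 ± 0.06 (0.00037). Atp5a1 was likewise highest in APCs, by 0.47 ± 0.06 over SMCs (2.1e-06). Its small differences of FIPs from MLCs (0.14) and from SMCs (0.18) turned to -0.19 and -0.04 with equal totals.

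The 3 genes for the c subunit of the ATP synthase, which encode the same mature protein, did not share one order. Atp5g3, the most abundant per kilobase (3135 in APCs), differed by 0.69 ± 0.08 for APCs against SMCs (2270 ± 162 and 1416 ± 168; adjusted p = 6.9e-07). Atp5g2 was highest in MLCs: it held 579, 657, 642 and 649 there, 386, 474, 475 and 339 in APCs, 369, 348, 437 and 369 in FIPs, and 330, 384, 374 and 393 in SMCs. MLC libraries were above all others, by -0.61 ± 0.10 for APCs against MLCs (3.8e-05), -0.73 ± 0.10 for FIPs against MLCs (3.6e-06) and 0.77 ± 0.10 for MLCs against SMCs (2.3e-06). Atp5g1 was higher in MLCs (563 ± 55.7) than in FIPs (435 ± 33.6) and SMCs (387 ± 30.4), and between MLCs and APCs (518 ± 40.0) its difference of -0.12 ± 0.09 missed the threshold. Atp5c1, the gamma subunit, was higher in APCs by 0.69 ± 0.08 over SMCs (5.3e-07). Atp5e, the epsilon subunit, was the one called lower in APCs (-0.31 ± 0.12, adjusted p = 0.040), a call lost without APCs 1, APCs 2, SMCs 2, SMCs 3 or SMCs 4.

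The isoforms Cox6b2 and Ndufa4l2 varied far more than their common partners, and the tested isoforms did not all share one order. Cox6b2, known as the testis form of subunit 6b, lies at chr7:4751792-4753094 (GRCm38). It held 46.5, 59.2, 50.6 and 49.9 counts in FIPs, 140, 128, 116 and 89.9 in APCs, 167, 311, 248 and 276 in SMCs, and 298, 331, 325 and 333 in MLCs. FIPs lay below all other libraries, APCs next, and MLCs and SMCs overlapped. The difference was -2.62 ± 0.17 for FIPs against MLCs (adjusted p = 2.6e-11), -2.23 for FIPs against SMCs (1.1e-09), -1.45 for APCs against MLCs (2.0e-07), -1.06 for APCs against SMCs (2.5e-05) and 1.17 ± 0.17 for APCs against FIPs (1.0e-05). Between MLCs and SMCs it was 0.40 (0.042), which was lost without APCs 3, MLCs 2, MLCs 3, MLCs 4, SMCs 1 or SMCs 3. Per kilobase, Cox6b2 made up 23.6% ± 0.76 (SD, n = 4) of the pair Cox6b1 and Cox6b2 in MLCs and 23.2% ± 4.0 in SMCs, but 11.0% ± 2.65 in APCs and 4.96% ± 0.44 in FIPs, a share taken within a library that library scaling does not alter. A list of 6 male germ cell genes summed to 15.3 to 49.1 counts in SMCs, 10.3 to 18.4 in MLCs, 6.92 to 19.3 in APCs and 12.4 to 20.8 in FIPs. Most of it was Ddx4 (up to 43.8 in SMCs), and Prm1 reached 10.5 in SMCs. The other 4 genes were at or near 0, among them Tnp1 (0 in every library) and Prm2 (at most 1.02). Their part in the levels of Cox6b2 was not tested.

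Cox4i2, the form of subunit 4 known from lung and from oxygen-sensing vascular cells, lies at chr2:152753916-152765039. It held 27.9, 23.2, 22.9 and 34.6 counts in APCs, 2.0, 9.2, 6.7 and 9.1 in FIPs, 5.0, 8.5, 3.0 and 5.3 in MLCs, and 16.8, 7.5, 2.1 and 16.3 in SMCs. APCs lay above all other libraries. It passed the low-value filter only through APCs, so a difference had to appear. The differences were 1.99 ± 0.51 for APCs against FIPs (adjusted p = 0.0039), 2.18 for APCs against MLCs (0.00093) and 1.54 for APCs against SMCs (0.015). The last was 1.01 (0.061) without SMCs 3 and 0.89 (0.12) without APCs 4 and SMCs 3. The values rest on 20 to 33 reads a library in APCs, 2 to 10 in FIPs, 4 to 10 in MLCs and 1 to 16 in SMCs. It made up 1.10% ± 0.17 of Cox4i1 and Cox4i2 per kilobase in APCs and less than that on average elsewhere.

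Ndufa4l2, a relative of Ndufa4 that is known to be induced in low oxygen and is enriched in pericytes, lies at chr10:127509274-127517154. It held 76.9, 82.2, 40.6 and 84.8 counts in SMCs, 35.5, 34.2, 38.6 and 10.4 in APCs, 10.9, 12.9, 16.2 and 10.9 in FIPs, and 16.8, 8.5, 14.01 and 10.6 in MLCs. SMCs lay above all others, and APCs 4 fell below the rest of APCs into the range of FIPs and MLCs. These values rest on 19 to 83 reads a library in SMCs, 6 to 54 in APCs, 11 to 17 in FIPs and 10 to 20 in MLCs. The difference was -2.41 ± 0.36 for MLCs against SMCs (adjusted p = 8.7e-06), -2.35 ± 0.36 for FIPs against SMCs (1.9e-05) and -1.33 ± 0.36 for APCs against SMCs (0.0042). The last was -0.76 (0.080) with quantile normalization. APCs were higher than MLCs by 1.08 ± 0.36 (0.013), which became 0.90 (0.050) without APCs 3. APCs were higher than FIPs by 1.02 ± 0.36 (0.029). That call was lost without any one of APCs 1, APCs 2, APCs 3, FIPs 1, FIPs 2 or FIPs 4, and without APCs 4 and SMCs 3 together the difference was 1.45. Per kilobase, Ndufa4l2 made up 6.94% ± 2.04 of Ndufa4 and Ndufa4l2 in SMCs, 2.02% ± 0.95 in APCs, 0.962% ± 0.24 in FIPs and 0.780% ± 0.28 in MLCs.

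Pericyte genes were mixed beside these isoforms. A list of 6 of them summed to 5134 to 6573 counts in APCs, 4225 to 4971 in SMCs, 2667 to 2886 in FIPs and 1424 to 1615 in MLCs. Most of the sum in APCs was Notch3 (4386 on average). Abcc9 had the order of Ndufa4l2, with means of 1439 in SMCs, 1213 in APCs, 630 in FIPs and 438 in MLCs, and Rgs5 likewise was highest in SMCs (72.7) and next in APCs (46.0). Cspg4 was highest in SMCs (1035) and then in MLCs (738), Kcnj8 was highest in MLCs (201), and Higd1b was at no more than 2.72 in any library. The part of these cells in the isoform levels was not tested.

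Cox7a1, the heart and muscle form of subunit 7a, lies at chr7:30184171-30186030. It held 57.0, 43.1, 64.9 and 60.7 counts in MLCs, 30.4, 19.1, 27.9 and 48.4 in APCs, 30.7, 32.4, 20.05 and 20.9 in FIPs, and 31.6, 27.7, 47.0 and 28.6 in SMCs. MLCs lay above FIPs and overlapped APCs and SMCs in 1 library each. The difference was -1.11 ± 0.27 for FIPs against MLCs (adjusted p = 0.0012), -0.88 ± 0.27 for APCs against MLCs (0.0068) and 0.74 ± 0.27 for MLCs against SMCs (0.020). The first 2 became -0.57 (0.054) and -0.46 (0.12) with quantile normalization, and the third was lost without MLCs 3, SMCs 2 or SMCs 4. Its partner Cox7a2 stood at 23.3 to 30.8 on average, with 432 reads over all libraries, so no share of the pair is given. Skeletal muscle genes, of which Pygm made up most, summed to 1063 to 1367 in SMCs, 850 to 949 in MLCs, 678 to 849 in APCs and 291 to 369 in FIPs, so MLCs were not the highest. Tnnt3 was lowest in MLCs (5.45 on average, against 86.7 in FIPs), with Ckm at 14.95 or less and Myh4 at 3.20 or less in every library. Mylpf was instead highest in MLCs (9.76 on average, against 6.85 in SMCs, 5.20 in FIPs and 3.88 in APCs). Acta1 averaged 31.9 in SMCs, 17.0 in APCs, 15.6 in MLCs and 13.4 in FIPs. The part of muscle cells in the Cox7a1 levels was not tested.

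**Figure D4:**
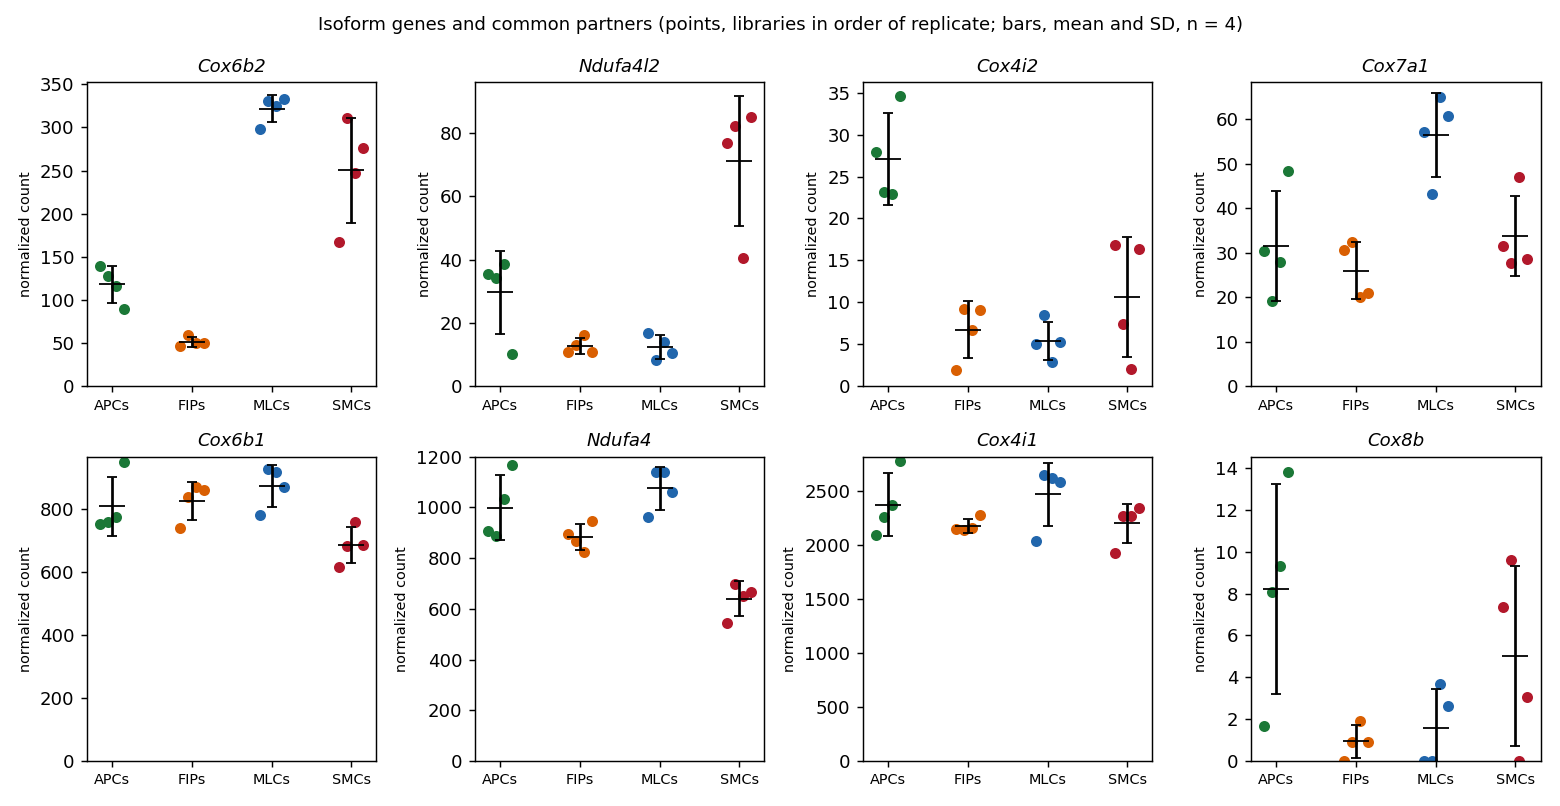
Normalized counts of isoform genes and of common partners in every library (points, in order of replicate number; bars, mean and SD, n = 4), each y axis starting at 0. Cox6b2 is highest in MLCs and SMCs, Ndufa4l2 in SMCs, Cox4i2 in APCs and Cox7a1 in MLCs, while the partners Cox6b1, Ndufa4 and Cox4i1 differ by less than 2-fold between means.

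The other 4 isoforms were too low to test. Cox8b, known from brown fat and muscle, held 1.69, 8.06, 9.29 and 13.8 counts in APCs, 0 to 1.91 in FIPs, 0 to 3.69 in MLCs and 0 to 9.61 in SMCs, on 62 reads in all. The APC range overlapped that of every other population. The 6 brown adipocyte genes listed, Cox8b among them, summed to 58.2 to 164 counts in SMCs, 18.6 to 86.5 in APCs, 35.5 to 45.7 in MLCs and 12.9 to 28.7 in FIPs. Most of this was Dio2, at up to 147.3 in SMCs and 57.1 in APCs 4. Ucp1, which defines brown adipocytes, was at 10.4 in APCs 4, the library with the highest Cox8b, and lower in every other library, and Cidea was at 4.27 or less. Their part in the Cox8b level was not tested. Cox6a2, a muscle form, had 4 to 15 reads a library in MLCs, 0 to 5 in SMCs and 0 in every APC and FIP library, where a count of 0 allows up to 3 reads (counting error only). Cox7b2 had 3 reads in the whole table and Cox8c 1 read.

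Several common members were also measured poorly. Sdhd, Uqcr11 and Cox7a2 encode subunits of complexes found in all respiring cells, yet held 83, 1 and 432 reads over the 16 libraries, so no level of these 3 subunits should be read from the table. By contrast 84.8% of the 50-base windows of Atp5l, 50.3% of Atp5o and 47.9% of Atp5h occur in other genes, and their counts are uncertain.

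The mitochondrially encoded subunits, made from mitochondrial DNA, differed most between APCs and SMCs. Of their 13 genes 10 were tested, and 7 were higher in APCs than in SMCs (26.3% of all genes were), with a median of 0.43. In the other pairs with calls, 4 were higher in FIPs than in SMCs (26.4%), 4 in APCs than in MLCs (32.6%) and 3 in MLCs than in SMCs (35.3%), the last 2 near the shares over all genes. ND1, a complex I subunit, averaged 33770 counts in APCs, 28950 in MLCs, 28290 in FIPs and 20400 in SMCs, and differed by 0.70 for APCs against SMCs and 0.51 for MLCs against SMCs. COX1, of complex IV, stood near 60000 in 3 populations (59750 in APCs, 59790 in FIPs, 60290 in MLCs) and at 48780 in SMCs. The summed share of the mitochondrially encoded genes was 0.997% ± 0.194 of all normalized counts in APCs, 0.930% ± 0.017 in MLCs, 0.766% ± 0.108 in FIPs and 0.723% ± 0.054 in SMCs. The APC libraries ran from 0.732% (APCs 2) to 1.20% (APCs 4) and overlapped every other population, and FIPs and SMCs also overlapped. In this table COX2 (79 to 89 on average) and ATP6 (12 to 19) are far below their neighbours on the same genome, so the list does not measure every subunit.

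Genes that feed the chain were also called in pairs with SMCs. Of 17 tested genes of the citric acid cycle and pyruvate dehydrogenase, 16 were higher in APCs than in SMCs, 11 higher in FIPs than in SMCs, and 9 higher and 1 lower in MLCs than in SMCs. Citrate synthase (Cs), the entry enzyme of the cycle, averaged 3753 counts in APCs, 3701 in MLCs, 2642 in FIPs and 2104 in SMCs. Its differences were 0.84 for APCs and 0.82 for MLCs against SMCs. The soluble carrier cytochrome c (Cycs) was instead high in APCs alone, with 300.5 counts against 181.5 in FIPs, 201.2 in MLCs and 173.3 in SMCs, and differences of 0.73, 0.58 and 0.79. Of 21 electron carriers and coenzyme Q genes 12 were higher in APCs than in SMCs.

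The 77 tested mitochondrial ribosomal protein genes, needed to translate the mitochondrially encoded subunits, gave 49 higher in APCs than in SMCs, 34 higher in MLCs than in SMCs, and 24 higher in APCs than in FIPs. The 82 cytosolic ribosomal protein genes did not follow: 4 were higher and 12 lower in APCs than in SMCs, and 1 higher and 52 lower in MLCs than in SMCs. Glycolytic enzymes were split, with 6 higher and 4 lower of 19 in APCs against SMCs. Of 36 assembly factors outside the symbol pattern, 12 were higher and 3 lower in APCs than in SMCs. These lists and those of the paragraph above are described beside all genes tested. Of these genes, 26.3% were higher and 29.8% lower for APCs against SMCs, and 35.3% and 30.3% for MLCs against SMCs. For FIPs against SMCs 26.4% were higher, and for APCs against FIPs 19.8%.

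Regulators of mitochondrial gene expression differed from each other in their order. Ppargc1a, the coactivator PGC-1alpha, held 51.1 counts in SMCs, 24.7 in MLCs, 11.9 in APCs and 8.67 in FIPs. Its difference was -2.10 for APCs against SMCs. Ppargc1b, its relative, held 75.4 counts in APCs and 88.6 in MLCs, against 23.1 in FIPs and 34.2 in SMCs. Nrf1, whose motif type was searched above, stood at 499 to 577 counts, with its lowest mean in FIPs. Of the transporters that serve ATP synthesis, Slc25a5, an adenine nucleotide carrier, was higher in APCs (2123) than in SMCs (1023), FIPs (1234) and MLCs (1336). Ucp2, an uncoupling protein relative, averaged 3203 in MLCs and 1919 in SMCs against 240 in APCs and 203 in FIPs.

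**Figure D5:**
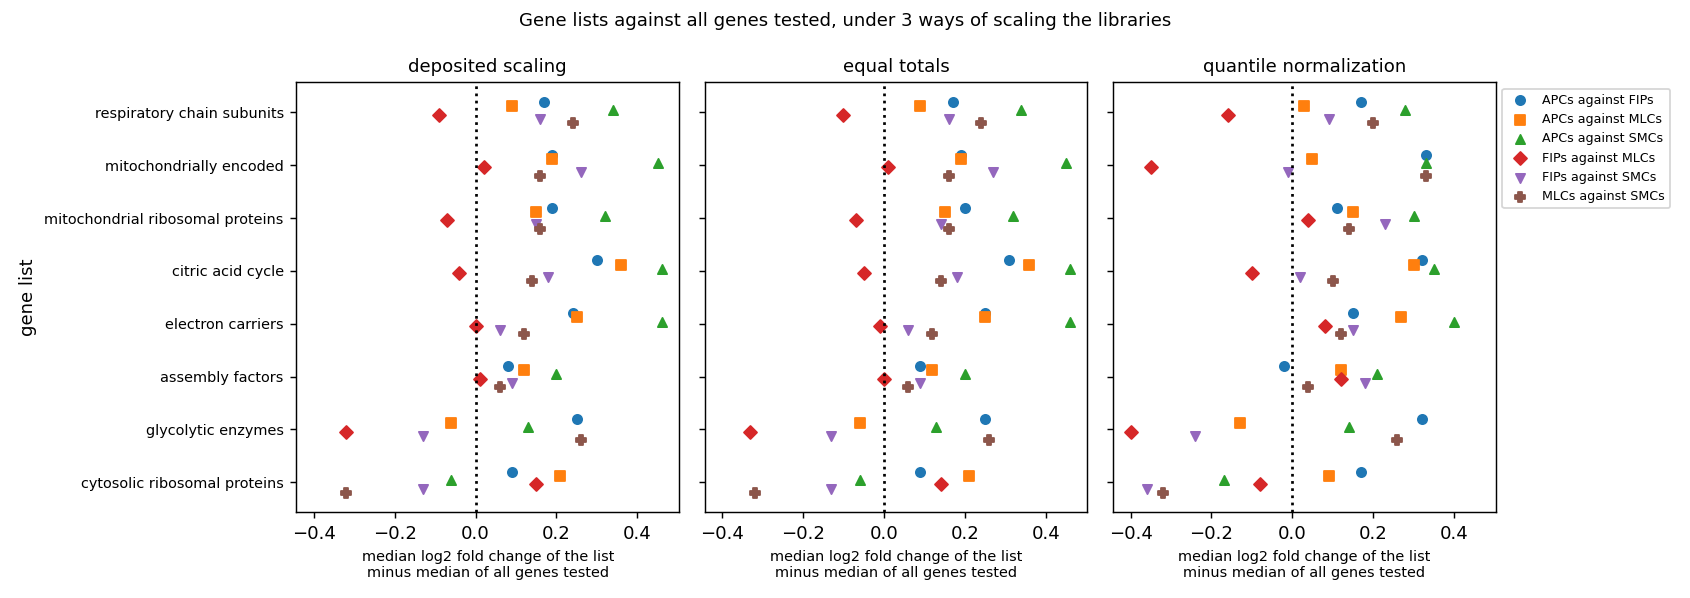
Median log2 fold change of each gene list minus the median of all genes tested (x axis) for the 6 pairs of populations (symbols), under the deposited scaling, equal totals and quantile normalization; respiratory chain subunits are members without isoforms, copies and assembly factors. For all 89 tested members, a larger set that is not drawn, the median lies 0.33, 0.33 and 0.30 above that of all genes for APCs against SMCs in the 3 panels' scalings. Cytosolic ribosomal proteins lie below 0 for that pair.

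Single libraries set part of the spread within populations. APCs 4, the library with high Acta2, held the highest complex I share of APCs (0.114%, against 0.0962% to 0.102% in the other 3). Without APCs 4 and SMCs 3 the counts were 50 higher and 4 lower for APCs against SMCs, 53 and 5 for MLCs against SMCs, 36 and 2 for FIPs against SMCs, and 25 and 2 for APCs against FIPs. They were 23 and 14 for APCs against MLCs and 12 and 27 for FIPs against MLCs. Mesothelial marker genes summed to 9730 to 14220 counts in SMCs, 3902 to 4389 in APCs, 3067 to 3582 in FIPs and 109000 to 112200 in MLCs. Their part in the SMC levels was not tested.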

How the data were processed

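Libraries were made from total RNA with an NEBNext Ultra II kit, per the labels. Per the submitters' processing notes, Trim Galore 0.4.1, HISAT2 2.0.1, featureCounts 1.4.6, DESeq2 1.6.3 and GRCm38 (mm10) were used; the strand setting was not stated there. The deposited table holds a signal per gene, normalized counts that the authors made by dividing reads by one factor per library. All values (100% within 0.01) were whole multiples of one step per library, which gave the reads and depths. Columns headed SMLCs were taken as the samples titled SMCs with the same number. The 1275 rows with no symbol could not match the pattern.

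The signal was tested as log2(value + 1) with limma 3.58.1 (R 4.3.3; trend, two-sided), keeping genes at 10 or more in at least 4 of 16 libraries, in one model of the 4 populations. P-values were adjusted by Benjamini-Hochberg over all 15024 genes within each of 6 pairs, after a test on simulated data with 200 changed genes. edgeR 4.0.16 (quasi-likelihood, recovered reads, without FIPs 1 and APCs 2), other scalings, pseudocounts of 0.1 and 8, no filter and leaving out libraries were alternatives. Genes with values are the isoforms and partners, members changed at least 2-fold, the widest called change per pair and complex, and core subunits. Other genes named from lists (Cyc1, Cycs, Cs, ND1, COX1 and the regulators) and Atp5g1 were chosen after their values were seen. Ndufaf1, Ndufaf4 and Ndufaf6 also fall outside the genes so selected. Members and lists were chosen with earlier results of these data known. One member is counted but not reported by name here. Exon lengths and overlaps came from GENCODE M21, promoters from RefSeq. Replicate numbers, which groups share, were checked for pairing (below).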

Additional observations from a re-analysis of the deposited data

Results flagged for a closer look

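Of 136 groups of 4 libraries screened over 38 named genes, 11 had a library set apart from the other 3 beyond Dixon's critical value. Chance alone sets about 1 in 20 groups apart in this way. Of APCs, replicate 4 was high for Cox6b1 (948 normalized counts) and low for Cox7a2 (13.8) and Ndufa4l2 (10.4). It is the library with high Acta2. Of FIPs, replicate 4 was high for Cox4i1 (2274), replicate 2 was low for Cox7a2l (731), and replicate 3 was high for Ndufa1 (285) and Sdha (3752). Of MLCs, replicate 1 was low for Cox4i1 (2033) and Ndufab1 (147), and replicate 3 was high for Cox7a2 (37.6). Of SMCs, replicate 2 was high for Cox7b (608).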

How the results depend on the processing

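With every library scaled to the same total, the members called were 71 for APCs against FIPs, 73 for FIPs against MLCs and 13 for FIPs against SMCs, against 28, 31 and 31 under the deposited scaling; the median of all genes then moved to 0.23, -0.35 and -0.22. Atp5a1 turned to -0.19 for FIPs against MLCs and -0.04 for FIPs against SMCs with equal totals, and to -0.07 and -0.04 with quantile normalization. Ndufv3 and Sdha turned to -0.05 and -0.14 for FIPs against MLCs with equal totals. Leaving out one library gave 21 to 35 calls for APCs against FIPs, 28 to 37 for APCs against MLCs, 56 to 60 for APCs against SMCs, 23 to 36 for FIPs against MLCs, 24 to 38 for FIPs against SMCs and 44 to 57 for MLCs against SMCs. edgeR on the recovered reads was run without FIPs 1 and APCs 2, so its counts do not rest on the same libraries. It called 21, 35, 59, 24, 32 and 46 members in the same order of pairs. Of 118 calls of named genes, edgeR lost 10, equal totals lost 15 and reversed 4, quantile normalization lost 11 and reversed 2, and leaving out one library lost 2 to 8. Same-numbered libraries deviated together weakly. Their deviations correlated at -0.03 to 0.17 (median 0.06, 24 pairs), nearly all positive, and those of others at -0.19 to 0.22 (median -0.02, 72 pairs). Whether libraries with the same number share a source was not tested. With the replicate number as a block the calls were 33, 36, 62, 35, 35 and 55, more than without it in every pair. All 118 calls of named genes stayed called. Depth limits Cox4i2, Cox7a1, Cox7a2, Cox8b, Cox6a2 and Ndufa4l2, which rest on few reads a library.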
